A study of Danio rerio with 24 samples.

Results

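The genes described here are the semaphorins, slits, netrins and ephrins, and their plexin, neuropilin, Eph, Robo and Unc5 receptors, in adult zebrafish heart ventricles. They were found by their names in the deposited expression table, which gave 92 genes of the 18987 listed. Of these, 47 are ligands, 44 are receptors, and 1, unc50, matches only by its spelling, as it is annotated as the unc-50 homolog and is not an Unc5 receptor (mean count 122). The study compared wild-type adult fish that swam in a tunnel after ventricular cryoinjury with cryoinjured fish kept at rest, sampled at 7 and 14 days post injury (dpi), and the series also holds sham-operated fish that did not exercise. Each of the 6 groups has 4 samples, 3 of them pools of 3 ventricles and 1 a pool of 4, which makes 24 samples in all. Poly-A RNA of the whole ventricle, freed of atrium and bulbus arteriosus, was sequenced, and no line, transgene or sorted cell was involved.

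Guidance molecules were named for steering growing axons, and the same signals shape blood vessels, heart valves and the epicardium. A ligand is secreted or held on a cell membrane, and its receptor on the neighbouring cell alters the actin cytoskeleton and adhesion, so that the cell turns away or is drawn in. Semaphorins bind plexins, with neuropilins as co-receptors for the secreted class 3 members, slits bind Robo receptors, netrins bind Unc5 receptors, Dcc and neogenin, and ephrins bind Eph receptor tyrosine kinases on touching cells.

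For each gene the deposited table gives 1 level, the authors' mean normalized count. It was taken as the mean over samples of the reads counted in the gene after scaling for depth. Which samples entered it, and whether sham-operated ventricles did, is not given in the sources used here. The table has 0 columns of values per sample, so no spread, depth or group level can be given, and exercised and non-exercised ventricles were not compared: no statement on exercise, injury or time is made for any of the 92 genes. Transcript lengths were not used here either. A mean count therefore says how many reads a gene drew, and the ratio of the counts of 2 genes is a ratio of reads that mixes transcript length with transcript number. The ventricle was sequenced whole, so fewer cells of a type and less RNA per cell cannot be told apart.

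Markers of several cardiac cell types were read. No list was drawn up for atrium or bulbus arteriosus, so leftover tissue of either was not tested. All 7 cardiomyocyte markers of a list of textbook genes had mean counts between 16751 and 163295, the 7 endothelial and endocardial markers lay between 222 and 3550, and the 6 epicardial markers between 40.9 and 1809. Of 6 neuronal markers 3 were found by name, with mean counts of 10.5 for snap25a, 16.6 for elavl4 and 278 for syt1a, and the 4 glial markers lay between 10.5 and 56.0. The 6 fibroblast and matrix markers lay between 469 and 12777, and the 3 erythroid markers found, of 5, between 4185 and 25133. The 4 smooth muscle and pericyte markers lay between 135 and 1749, and the 4 macrophage markers between 97.2 and 465. Which of these cells the reads of a guidance gene came from was not tested.

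Mean counts of the guidance genes ran from 0.504 to 1302, against 0 to 476503 over all genes listed. The median member had a mean count of 86.2 (middle range 31.9 to 257, the quartiles), against 79.6 over all genes listed (17.3 to 266). A mean count of at least 100 was reached by 41 of the 92 genes (44.6%, against 45.1% of all genes listed) and one of at least 1000 by 2 genes (2.17%, against 7.45%). At the other end, 13 members (14.1%, against 18.0%) had a mean count below 10, and 0 were listed at 0. Ligands and receptors had medians of 85.2 and 88.0. Together the 92 genes are 0.485% of the genes listed and drew 0.133% of the summed mean counts, and 41.9% of the reads of the whole group fell on its 10 highest genes.

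**Figure D1:**
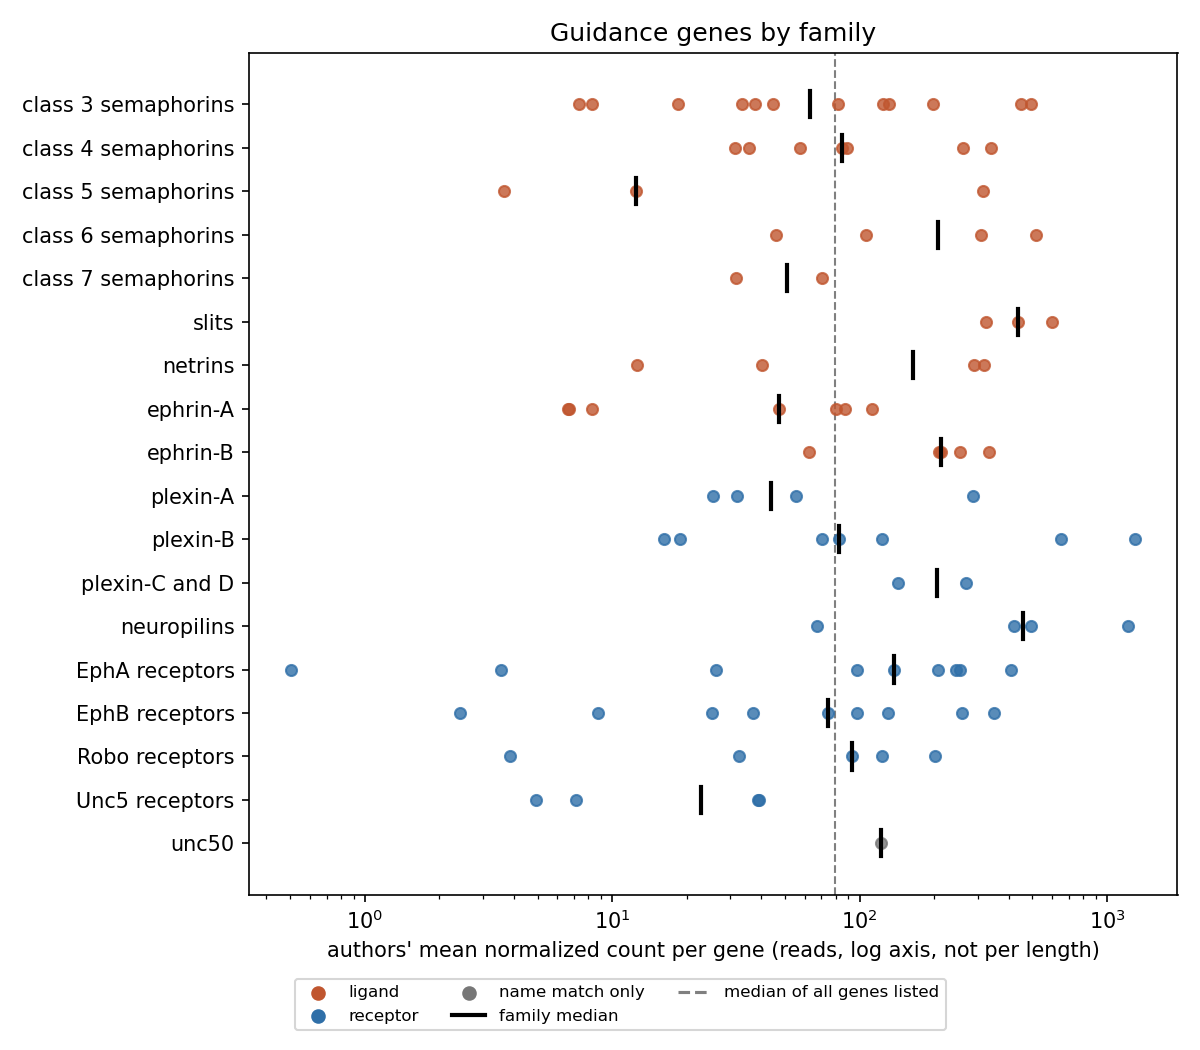
Authors' mean normalized count (reads, log axis, not per length) of each of the 92 genes, 1 point per gene, arranged by family; black bars are family medians and the dashed line is the median of all genes listed, 79.6. The 3 slits and the ephrin-B genes other than efnb1 lie to the right of the line, as do 3 of the 4 neuropilins, and the 4 Unc5 receptors lie to the left of it.

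Among the ligands, class 3 semaphorins, which are secreted, were the most numerous family with 12 genes. Their mean counts ran from 7.36 for sema3h to 493 for sema3gb. Beside sema3gb, sema3ab was read most, with a mean count of 449, and the next was sema3fb with 198. The sema3ab product is a copy of Sema3A, the classical repellent of sensory axons in birds and mammals. The remaining 9 drew fewer reads: sema3aa had 132, sema3b 125 and sema3d 82.0, and sema3bl, sema3ga, sema3e, sema3c, sema3fa and sema3h lay between 7.36 and 44.5.

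The membrane-bound semaphorins were also read. Of the class 6 genes, whose transmembrane products bind plexin-A receptors, sema6e had the highest mean count of any semaphorin, 519, followed by the gene listed as sema6d with 309, by sema6bb with 106 and by sema6dl with 45.8. Of the 7 class 4 genes, sema4c had 341 and SEMA4D, the ligand of plexin-B1 in mammals, 262, and the other 5 lay between 31.4 and 88.7. In class 5, whose members carry thrombospondin repeats, 95.1% of the reads fell on sema5a, with a mean count of 315, against 12.5 for sema5ba and 3.65 for sema5bb. The GPI-anchored class 7 is represented by rows named sema7a and SEMA7A, with mean counts of 70.3 and 31.6. Both rows were matched by name to the same gene, sema7a, of the RefSeq annotation.

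The slits were the ligand family with the highest median, 438. All 3 genes listed had a mean count of at least 100: slit2 had 599, slit3 438 and slit1a 323. The slit1b gene of the RefSeq annotation was matched to no row, so the median covers only the genes listed. Slits are large secreted proteins with leucine-rich repeats, cleaved after secretion. Among the Robo genes, robo3 had a mean count of 201, robo4 123, robo1 93.2 and robo2 32.4. A separate row named ROBO3, whose ID carries the clone name zgc:77784 in the reference list, had 3.86. Robo4 is the member of the family known from endothelium. The sum over the 3 slits was 1360 reads and that over the 5 Robo rows 453, with transcript lengths not taken out.

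The netrins, secreted relatives of laminin, fell into an upper and a lower pair. The mean counts of ntn1b and ntn1a were 318 and 289, and those of ntn2 and ntn4 were 40.5 and 12.6. Netrin receptors of the Unc5 family, which mediate repulsion, had few reads: unc5c had a mean count of 39.3, unc5b 38.8, unc5a 7.12 and unc5da 4.94, the lowest family median of all receptors, 22.9. Neogenin, the other netrin receptor looked up, had mean counts of 180 for neo1a and 25.9 for neo1b. The dcc gene was not found by name and was not analysed here.

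Ephrins of the B type, which span the membrane and signal back into their own cell, and ephrins of the A type, which hang on a lipid anchor, were both listed. Of the 5 ephrin-B genes, 4 had a mean count of at least 100: efnb2b had 332, efnb2a 256, efnb3b 214 and efnb3a 209, and efnb1 had 62.6. Of the 7 ephrin-A genes only efna1a did, with 113. Below it were efna1b with 87.2, efna5a with 80.0, EFNA4 with 47.4, and efna3b, efna5b and EFNA2 between 6.62 and 8.32. Whether the ephrin types differ was not tested, since there is no spread to set the counts against.

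Eph receptors were represented by 9 EphA and 9 EphB rows. The row named EPHA2 had the highest mean count, 410, and ephb4a the next, 349, with ephb4b at 260. Ephrin-B2 and EphB4 are a ligand and a receptor that mark arterial and venous endothelium in vertebrate embryos. The mean counts of their 4 zebrafish genes ran from 256 for efnb2a to 349 for ephb4a, with transcript lengths not taken out. Counts above 100 were also found for epha4a (255), epha4l (245), epha2a (208), epha3 (138) and ephb3a (130), while epha7 and EPHB3 had 98.0 and 97.4. The lowest of all 92 genes were Eph receptors: EPHA5 had a mean count of 0.504, ephb6 2.43 and epha4b 3.56. In mammals EphB6 lacks kinase activity.

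Plexins, the signalling receptors of semaphorins, included the member with the most reads of all, a row named plxnb2a with a mean count of 1302, more than 94.1% of the genes listed. A second row of the same name had 18.8 and a row named PLXNB2 had 16.2. In the reference list the first row (ENSDARG00000003811) is plxnb2a.1 and PLXNB2 (ENSDARG00000079892) is plxnb2a.3. The row with 18.8 has the clone name si:dkey-183c2.5 there and was matched to no RefSeq gene. These are separate gene models, and how reads shared between them were counted is not given in the sources used here. Among the other plexin-B genes, plxnb1a had 649.6, plxnb1b 124, plxnb2b 82.9 and plxnb3 70.2. Plexin-A genes, partners of neuropilins for class 3 semaphorins, were led by plxna2 with 286, and plxna4, plxna1b and plxna3 lay between 25.7 and 55.5. PLXND1, known for restraining vessel sprouting in zebrafish and mouse embryos, had 269, and plxnc1, a receptor of Sema7A in mammals, 143.

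Neuropilins serve both class 3 semaphorins and vascular endothelial growth factors as co-receptors, and had the highest family median, 456. The nrp1a gene had a mean count of 1213, which was 55.3% of the reads of the 4 genes. It was followed by nrp1b with 492 and nrp2b with 419, and nrp2a had 67.3.

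Zebrafish hold many of these genes as copies named a and b, which descend from the genome duplication of the teleost fishes. For 16 pairs each copy was listed in 1 row. Genes with only 1 copy found by name, such as slit1, plxna1, unc5d, sema6b and efna3, are not among them. The plxnb2 pair is not counted among them, since plxnb2a has 2 rows: that with 1302 reads was 15.7 times plxnb2b (82.9), and plxnb2b was 4.40 times the other, with 18.8. The row with 18.8 carries a clone name in the reference list, so whether it is a plxnb2a gene is not settled. The RefSeq annotation also holds plxnb2a.2, which was matched to no row. Whether the row with 18.8 is that gene was not tested. PLXNB2 (16.2), named plxnb2a.3 there, was not set against plxnb2b. Among the 16 pairs, the copies drew reads within a factor of 2 of each other in 5 pairs (efnb3, ntn1, efna1, efnb2 and ephb4), differed by more than 2 in 11, and by more than 5 in 6 of these. The higher copy was the a copy in 7 pairs and the b copy in 9. The widest ratio of the 16 was that of epha4, with 255 for epha4a against 3.56 for epha4b (a factor of 71.6). The next were sema3f (24.0, sema3fb higher), sema3g (13.1, sema3gb higher), efna5 (80.0 for efna5a against 6.67 for efna5b), nrp2 (6.23, nrp2b higher) and plxnb1 (5.25, plxnb1a higher). In between were sema5b and sema3a (both 3.41), sema4a (2.71), nrp1 (2.46) and ephb2 (2.02). The median ratio was 3.06, and the narrowest, that of efnb3, was 1.02. The lower copies of epha4, sema3f, efna5 and sema5b had mean counts of 3.56, 8.26, 6.67 and 3.65. The ratios of these pairs therefore rest on few reads. The gene epha4l (245) carries the symbol EPHA4 in the reference list, as epha4a does, and is outside the pair. All are ratios of reads, and different lengths of the 2 gene models were not taken out.

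**Figure D2:**
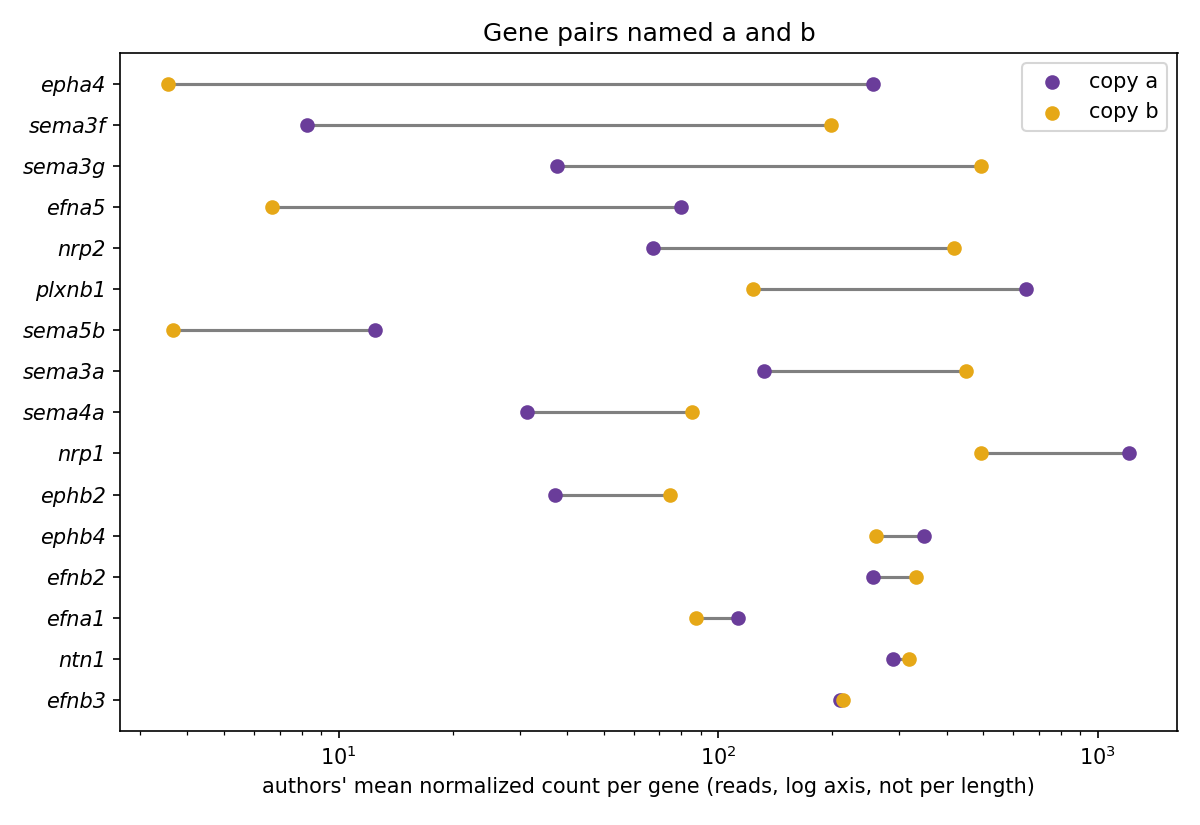
Authors' mean normalized counts (reads, log axis, not per length) of the 16 gene pairs named a and b with 1 row for each copy, joined by a line and ordered by their ratio; plxnb2, with 2 rows for plxnb2a, is left out. The copies of efnb3 nearly coincide at 209 and 214, and those of epha4 stand apart at 255 and 3.56.

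By other names, 2 more pairs can be put together. EPHA2 carries the name epha2b in the reference list, which sets 410 beside the 208 of epha2a, a factor of 1.97. The genes listed as sema6d and sema6e match sema6ca and sema6cb of the RefSeq annotation, with 309 and 519, a factor of 1.68.

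Some of the genes lie side by side in the zebrafish genome. Of the 92 members 87 were matched by name to the protein-coding genes of the GRCz12tu annotation. Its coordinates served only to put the genes in order, and none is given, since the reads were aligned to GRCz10. These matches fall on 86 different genes, since the rows sema7a and SEMA7A share a match. In the order of protein-coding genes, with all others left out, robo4 neighbours robo3, with mean counts of 123 and 201. Likewise robo2 neighbours robo1, with 32.4 and 93.2. The genes EFNA4, efna3b and efna1b follow each other, with 47.4, 8.32 and 87.2. Likewise sema3bl lies beside sema3b, with 44.5 and 125. On either side of sema3ab (449) are sema3e (33.3) with no protein-coding gene between them and sema3d (82.0) with 1 between. With 1 protein-coding gene between them also lie plxnb2a (1302) and PLXNB2 (16.2), and unc50 (122) and sema5bb (3.65). The middle gene had the fewest reads in the ephrin-A trio and the most in the semaphorin trio, with gene lengths not taken out.

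Of 43 further genes of guidance signalling, chosen from textbook knowledge, 37 were found by name. A mean count of at least 100 was reached by 22 of their 38 rows, and by 8562 of all 18987 genes listed (45.1%). The highest counts were those of 2 Mical genes, enzymes that oxidise actin downstream of plexins, 1825 for mical2a and 1422 for mical2b. The higher of the 2 rows named mical3a had 969. The other mical3a row, mical1 and mical3b lay between 52.0 and 69.5. Among the collapsin response mediators, which bind tubulin, dpysl3 had 624 and dpysl2b 262, and the other 3 found lay between 15.4 and 51.6. The adaptors crk and crkl, which act with Eph and many other receptors, had 764 and 566. The rest of that set lay between 3.51 for vav3b and 379 for nck1b. The membrane heparan sulphate carriers sdc2 and sdc4 had 780 and 763, and gpc1b and gpc1a had 155 and 3.86. Of the repulsive guidance ligands, rgmd had 258, rgma 43.1 and rgmb 28.8.

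**Figure D3:**
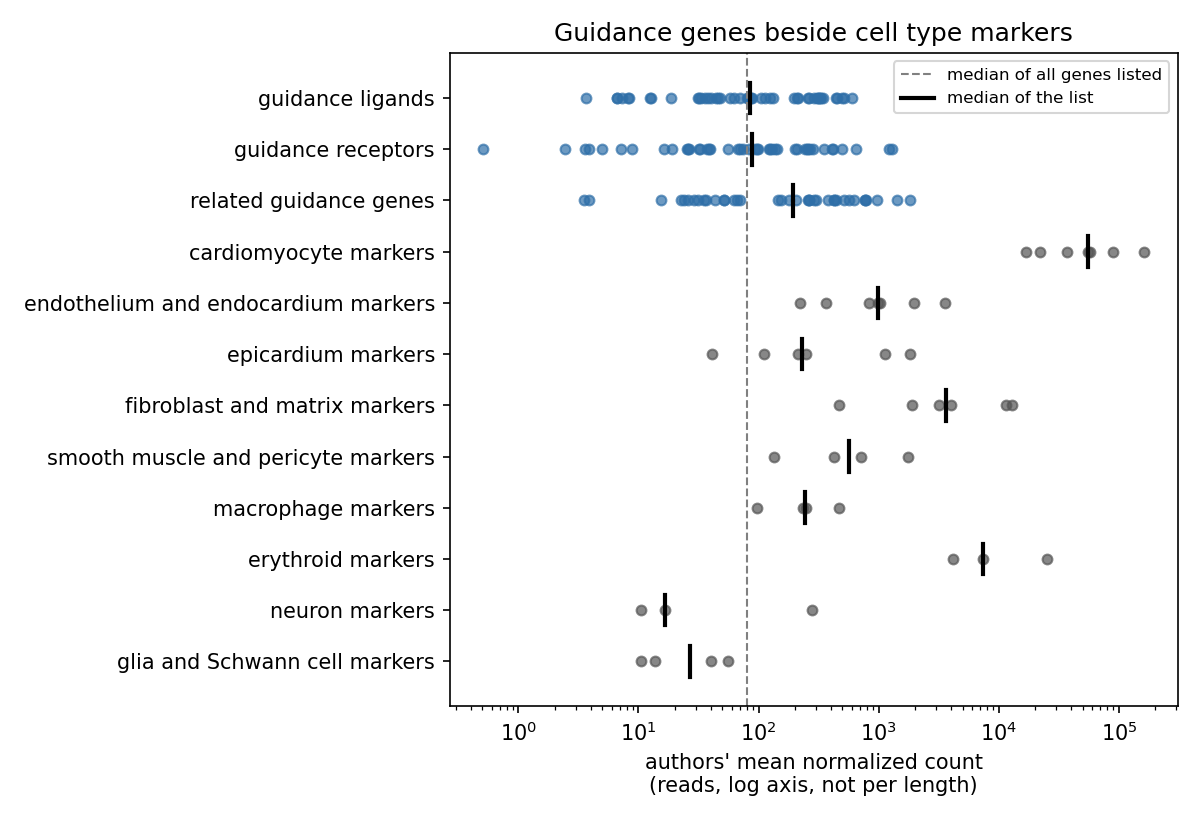
Authors' mean normalized counts (reads, log axis, not per length) of the 47 guidance ligands, the 44 receptors and the related guidance genes, beside the cell type markers; points are genes, black bars the median of each list and the dashed line the median of all genes listed, 79.6. The ligand and receptor medians, 85.2 and 88.0, lie near that line. They are below the medians of the cardiomyocyte, erythroid, fibroblast, smooth muscle and endothelial lists. They are also below those of the macrophage (241) and epicardial (231) lists. The neuronal and glial medians, 16.6 and 26.8, are lower than both. Single genes depart from their lists, such as epicardial wt1a at 40.9 and neuronal syt1a at 278.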

How the data were processed

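RNA of pooled ventricles was captured by poly-A, and libraries were sequenced on an Illumina NextSeq instrument. TopHat2 2.1.0, HTSeq 0.6.0 and DESeq2 are named by the submitters' processing notes, with the genome build GRCz10. The deposited table holds 1 signal column used here, the mean normalized count, which the file header names as DESeq2 does, and which was therefore taken as the authors' mean over samples of counts divided by size factors; the samples behind it are not given in the sources used here. A further 7 columns hold the authors' own fold changes, errors, statistics and p-values for exercise and were not used. With 0 columns per sample, the planned edgeR test was not run. Levels per kilobase of coding sequence and protein identities, also planned, were not computed, since no transcript lengths or sequences were used here.

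Members were found by name, with case ignored. Names were checked against a list of gene IDs and symbols and against the RefSeq annotation of GRCz12tu, of which the symbols, synonyms and gene order were used and no coordinates are given. Genes with a mean count of at least 500, the highest and lowest of each family and both copies of each pair with such a gene are given in full. The members and lists were chosen with earlier results of these data known. Python 3.11.15, numpy 2.4.6, pandas 2.3.3 and matplotlib 3.10.9 were used. Counting error could not be given, since no reads per sample were at hand.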

Additional observations from a re-analysis of the deposited data

How the results depend on the processing

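The median mean count of the members was 86.2 over all 92 genes, 113 over those with a mean count of at least 10, 93.2 over those with symbols in lower case and, as an alternative chosen after seeing the data, 85.2 without unc50. The median member stood above 51.7% of all genes listed, 48.1% of genes with a mean count of at least 10 when both were held to that minimum, and 51.4% without unc50. Each of these lay within a factor of 1.5 of the main value. They are overlapping parts of the same mean counts, so close values were likely from the start. They bear on the choice of genes and not on how the reads were processed. The alternatives per kilobase of coding sequence, and those of the test across samples (another tool and normalization, no filter on low counts, leaving out replicates), were not run. No paired analysis was possible because the table gives no values per sample. The lack of values per sample also limits every level above: none has an error, and small differences between genes cannot be read as real.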

Other observations

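Of the 92 genes, 13 carry a symbol in capitals, and 48 have the same symbol, with case ignored, in the reference list of gene IDs. The ID listed as sema6e is named SEMA6C there and the one listed as sema6d is named sema6ca, so that values under these names may be looked up under others elsewhere. Of the 92 members, 5 were not matched to the RefSeq annotation: EPHB3 (97.4), SEMA4B (88.7), epha8 (26.4), the lower plxnb2a row (18.8) and EPHB2 (8.76). That annotation holds 102 genes whose symbols match the name rule. Of these, 85 were matched to a member row and 17 were not, among them slit1b, plxna1a, sema6a and epha6. The 17 also include epha8, although a row of that name (26.4) is listed. The ID of that row carries the clone name si:ch211-162h21.1 in the reference list, and the match used that name. Also among the 17 are ephb3b, sema4bb and plxnb2a.2, while EPHB3, SEMA4B and the lower plxnb2a row were unmatched. Whether these rows are those genes was not tested. For the rest of the 17, whether they are absent or listed under another name was not settled. Family counts and medians therefore cover listed rows only.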
